A study of Mus musculus with 17 samples.

Results

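The 6 genes described here encode the inhibitor of DNA binding proteins Id1, Id2 and Id3 and the E proteins Tcf3 (E2A), Tcf12 (HEB) and Tcf4 (E2-2). They were taken by name as a family, with earlier results of these data known. They make up 6 of the 22180 genes measured, each with 1 probe set. Expression was measured on 17 Affymetrix arrays of 9 sorted mouse populations, with 2 arrays for each population but EILP, the early progenitor of innate lymphoid cells, which had 1. Bone marrow gave 13 arrays. They came from stem cells (HSC), lymphoid-primed progenitors (LMPP), common myeloid progenitors with or without Flt3 at the surface (flt3+ CMP and flt3- CMP), common lymphoid progenitors (CLP), EILP, and NK cells. Thymus gave 4 arrays, of early thymic progenitors (ETP) and of DN3 thymocytes, a later stage of the T cell lineage. Cells were pooled from mice that received 900 rads and donor marrow carrying a GFP reporter of TCF-1, and were taken after 12 weeks. The host animals differed from the donors in CD45, and no population came from an animal that had not been irradiated. The design text names every population but NK, whose tissue and cell type come from its own labels. Whether replicates came from separate animals is not stated, and the p-values cover no more than the spread between these arrays, which may be technical. The cells were measured in bulk, where fewer cells of a type and less RNA per cell cannot be told apart.

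E proteins are helix-loop-helix transcription factors that bind DNA as dimers at the E box, a short palindromic motif. Id proteins carry the same dimerisation domain without the basic region that contacts DNA, so a dimer of an Id and an E protein does not bind. In lymphoid cells, E proteins are known to drive antigen receptor gene programmes of B and T cells, and Id2 is required for innate lymphoid cells and NK cells. Despite their symbols, Tcf3 and Tcf4 are unrelated to TCF-1, which is encoded by Tcf7 and belongs to another family.

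In the mouse assembly GRCm38.p6, Id1 lies at chr2:152736251-152737410, Id2 at chr12:25093799-25096092 and Id3 at chr4:136143822-136145392. Tcf3 lies at chr10:80409541-80433976 and Tcf12 at chr9:71844252-72111893. The Id2 promoter is shown because Id2 had the widest range of population means among the 6 genes, 4.55 on the log2 scale, and its product acts on E box binding. It is the minus strand of chr12:25096093-25096342 from RefSeq, 250 bases that end at the base before the gene's start, with the only E box (CANNTG) in capitals.

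Id2 promoter: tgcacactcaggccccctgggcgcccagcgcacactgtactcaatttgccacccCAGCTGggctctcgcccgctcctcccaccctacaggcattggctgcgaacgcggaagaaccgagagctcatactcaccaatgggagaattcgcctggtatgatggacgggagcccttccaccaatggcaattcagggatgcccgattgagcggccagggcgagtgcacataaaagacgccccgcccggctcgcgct

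That E box, CAGCTG, begins 196 bases before the start. CANNTG reads the same on both strands, and 66.2% of 32851 RefSeq promoter windows of this length hold at least 1. CAGCTG is a special case of it that 13% of windows hold. The window before the start of Id3 holds no CANNTG, that of Tcf3 holds CACTTG 54 bases before its start, and the first of 3 windows of Tcf12 holds CAGCTG 240 bases before it. The start used for Tcf3 and those used for Tcf12 lie inside the gene spans given above, so these windows lie partly or wholly within the genes. The second window of Tcf12 holds CAAGTG 149 bases before its start and the third holds none. CAGGTG or its complement CACCTG, also cases of CANNTG, were in none of the windows matched, against 17.2% of all windows. CTTTGA or its complement TCAAAG, the core bound by TCF-1, was in none of them either, against 13.8%. A missing match says only that these letters are not in the window.

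The medians of the arrays ranged from 4.45 to 4.62 (log2), and precision is limited by how few arrays there are. The defining markers of each sorted population stood above the median of all values, 4.54, in that population, as far as they were measured here. This does not set the populations apart, since many of these markers were above it elsewhere too. Flt3 was at 8.34 in flt3- CMP and 7.76 in CLP, and Tox was at 7.25 in EILP, 8.13 in ETP and 8.30 in DN3. The mean of each list was highest in its own population, but for EILP it was 7.44 against 7.25 in NK. Y-linked transcripts were high in CLP, EILP and DN3, with population means over 3 genes of 7.12 to 7.41, and low in the 6 other populations, at 3.10 to 3.35. A comparison across this split cannot be told apart from it. Neutrophil transcripts, averaged over 5 genes, were at 10.43 to 11.96 in marrow populations and at 4.57 to 5.30 in thymus. A comparison of a marrow with a thymus population, such as LMPP or EILP with ETP, cannot be told apart from tissue.

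Of the 6 genes, 4 differed between populations by limma's moderated F test, with 22.7% of all genes called by the same rule. They were Id2 (adjusted p = 7.5e-08), Tcf12 (adjusted p = 4.8e-06), Tcf3 (adjusted p = 0.0015) and Tcf4 (adjusted p = 0.03). The call of Tcf4 was lost in 5 fits with 1 array left out, among them the one without NK replicate 1 (adjusted p = 0.11). It was also lost without NK replicate 2 (adjusted p = 0.087), CLP replicate 1 (0.053), CLP replicate 2 (0.061) or flt3+ CMP replicate 2 (0.053). Id1 (adjusted p = 0.56) and Id3 (adjusted p = 0.12) did not pass. Id3 passed without NK replicate 1 (adjusted p = 0.011) or NK replicate 2 (adjusted p = 0.02).

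**Figure D1:**
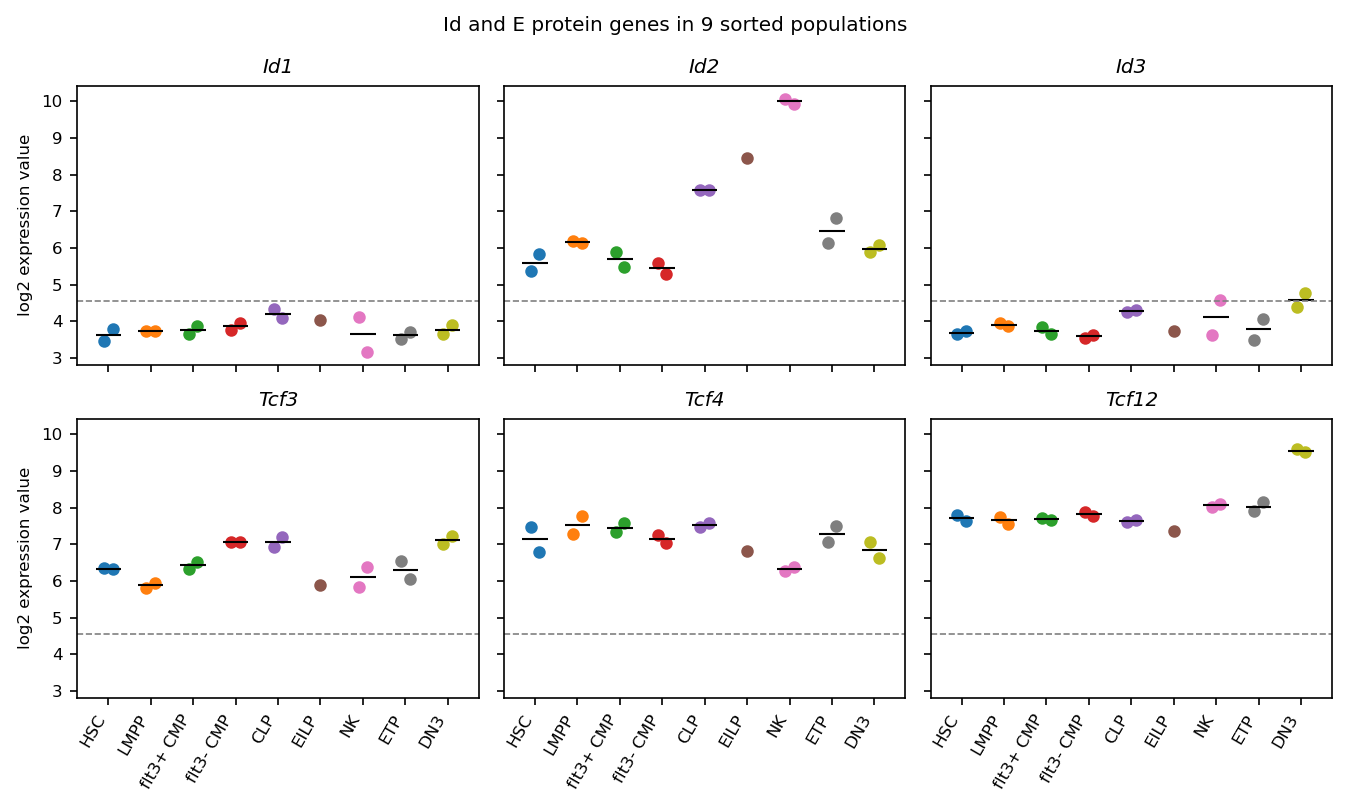
log2 expression value (vertical axis) of each of the 6 genes in the 9 populations (horizontal axis), with 1 point per array, a bar at the mean of populations with 2 arrays and a dashed line at the median of all values, 4.54. Id2 is highest in NK, EILP and CLP, Tcf12 is highest in DN3, and nearly all Id1 and Id3 points lie below the dashed line.

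Id2 was highest in NK, followed by EILP and CLP. On the log2 scale it was at 10.07 and 9.92 in the NK arrays, at 8.44 in the EILP array and at 7.57 and 7.58 in the CLP arrays. The other 12 arrays lay between 5.30 and 6.81, so none of them reached CLP. Among these, ETP was at 6.12 and 6.81, LMPP at 6.18 and 6.14, and DN3 at 5.89 and 6.07. The flt3+ CMP arrays were at 5.90 and 5.49, the HSC arrays at 5.37 and 5.83, and the flt3- CMP arrays at 5.60 and 5.30. From ETP downward, neighbours in the order of means overlapped, except LMPP and DN3, which differed by 0.18 ± 0.23 (SE, n = 2 against 2, adjusted p = 0.78).

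By the limma contrasts, Id2 in NK was above each of the 8 other populations, from 1.56 above EILP to 4.55 above flt3- CMP, a 23.4-fold difference. EILP and CLP were each above the same 6 populations and below NK. The step from EILP down to CLP, 0.86 ± 0.28 (n = 1 against 2, 95% interval 0.26 to 1.47), did not pass (adjusted p = 0.35), although the arrays did not overlap. The step from CLP down to ETP, 1.11 ± 0.23 (n = 2 against 2), passed (adjusted p = 0.0049) and did not with only these populations fitted (-1.11 for ETP minus CLP, adjusted p = 0.054). Over all 36 pairs of populations, 22 differed in Id2, where a single pair called between 0.108% and 13.1% of all genes. These counts for NK, EILP and CLP were 8, 6 and 6 with any single replicated array left out. ETP was called above HSC (0.86, adjusted p = 0.043) and flt3- CMP (1.02, adjusted p = 0.01). Without ETP replicate 2 both calls were lost (0.52, adjusted p = 0.34, and 0.67, adjusted p = 0.11). The first was also lost without HSC replicate 1 (0.64, adjusted p = 0.31) and the second without flt3- CMP replicate 2 (0.86, adjusted p = 0.1). The call against HSC was also lost with the replicate block (0.86, adjusted p = 0.053), with a trended and robust prior (adjusted p = 0.052), within the Y-low side of the split (adjusted p = 0.079) and with only these populations fitted (adjusted p = 0.25). In the last kind of fit the call against flt3- CMP was lost as well (1.02, adjusted p = 0.076).

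Markers of other cells moved in part with Id2. The mean of the neutrophil list was 11.96 in EILP, 11.84 in CLP and 11.35 in NK, against 10.43 to 11.19 in the other marrow populations. The macrophage list, 6 genes, was at 5.20, 4.92 and 4.86 in EILP, CLP and NK, against 4.35 to 4.59 elsewhere. Of 5 red cell markers 2 were measured, with means of 7.87, 7.99 and 7.14 in EILP, CLP and NK, 5.63 to 6.97 in the other marrow populations and 4.59 to 4.61 in thymus. Their part in the Id2 levels was not tested. The mean of 6 NK cell markers was 9.36 in NK, 5.33 in EILP and 4.84 in CLP. In EILP 3 of the 6 lay below the median of all values, Klrb1c at 4.28, Eomes at 3.89 and Gzmb at 3.57. Outside NK, EILP was still highest for Ncr1 (5.67), Klrb1c, Eomes and Prf1 (5.44, with DN3 at 5.42). It was not highest for Gzmb or Nkg7. The part of these transcripts in the Id2 level of EILP was not tested. On the Y-high side of the split, DN3 was at 5.98 for Id2, with a difference of -1.59 from CLP (adjusted p = 3e-04) and of -2.46 from EILP (adjusted p = 4.9e-05). On the Y-low side, NK was 3.84 above LMPP (adjusted p = 1.4e-07).

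Id1 and Id3, the other inhibitors, were near the bottom of the range of the arrays. All 17 Id1 values and 15 of the 17 Id3 values lay below the median of all values, near the floor of the measurement. Id1 was highest in CLP, at 4.32 and 4.10, and in EILP, at 4.04. It was at 3.77 and 3.95 in flt3- CMP, 3.64 and 3.90 in DN3, 3.64 and 3.86 in flt3+ CMP, and 3.72 in both LMPP arrays. HSC was at 3.47 and 3.80, ETP at 3.52 and 3.71, and the NK arrays at 4.12 and 3.16. Population means spanned 0.59, and no pair of 36 was called. The NK arrays spanned 0.96, more than all population means together. Without NK replicate 1, Id1 was called lower in NK than in CLP (-1.05, adjusted p = 0.012), and with both arrays it was not (-0.57, adjusted p = 0.21).

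Id3, a target of signals from the pre-T cell receptor, was highest in DN3, at 4.39 and 4.78, and next in CLP, at 4.24 and 4.30. The NK arrays were again far apart, at 3.63 and 4.59. The remaining arrays were at 3.94 and 3.86 (LMPP), 3.50 and 4.05 (ETP), 3.83 and 3.66 (flt3+ CMP), 3.72 (EILP), 3.64 and 3.72 (HSC) and 3.54 and 3.63 (flt3- CMP). DN3 was called above HSC by 0.91 (adjusted p = 0.047) and above flt3- CMP by 1.00 (adjusted p = 0.036), 2 of the 36 pairs. The call against HSC was lost when any of the 4 arrays concerned was left out, with differences of 0.71 to 1.11 and adjusted p-values from 0.067 (without DN3 replicate 1) to 0.3 (without DN3 replicate 2). The call against flt3- CMP was lost in the same 4 ways, with 0.80 to 1.19 and adjusted p-values from 0.061 (without DN3 replicate 1) to 0.26 (without DN3 replicate 2). Without NK replicate 1, Id3 was called higher in NK than in HSC (0.92, adjusted p = 0.032), flt3+ CMP (0.85, adjusted p = 0.044), flt3- CMP (1.00, adjusted p = 0.019) and ETP (-0.82 for ETP minus NK, adjusted p = 0.044). Without NK replicate 2, it was called higher in DN3 than in NK (0.96, adjusted p = 0.02).

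Among the E proteins, Tcf12, which pairs with E2A in thymocytes, was highest in DN3. It was at 9.59 and 9.51 there, at 8.01 and 8.11 in NK and at 7.90 and 8.14 in ETP. The other arrays lay at 7.88 and 7.76 (flt3- CMP), 7.80 and 7.62 (HSC), 7.71 and 7.65 (flt3+ CMP), 7.74 and 7.56 (LMPP), 7.60 and 7.65 (CLP) and 7.36 (EILP). DN3 stood clear of every other array by more than 1 unit, and all the rest lay in a narrow band with EILP lowest. DN3 was called above all 8 other populations, by 1.49 over NK (adjusted p = 9.3e-06) to 2.19 over EILP (adjusted p = 1.9e-06, a 4.57-fold difference). The 8 calls held with any 1 replicated array left out. No other neighbours in the order differed by the test, and the step from CLP down to EILP was 0.27 ± 0.18 (adjusted p = 0.77). On the same side of the Y-linked split as DN3, CLP was lower, with DN3 1.92 above it (adjusted p = 6e-07). Mature T cell markers, 5 genes, averaged 7.73 in DN3 and 3.50 to 4.74 elsewhere. In DN3, 2 of the 5 lay below the median of all values. Of the list, Cd3e is also a marker of DN3, and their part in the Tcf12 level was not tested.

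Tcf3, which encodes the E2A proteins needed for B cell commitment, formed an upper and a lower group of populations. It was at 7.01 and 7.22 in DN3, 6.93 and 7.20 in CLP and 7.05 and 7.07 in flt3- CMP. The others were at 6.33 and 6.52 (flt3+ CMP), 6.34 and 6.33 (HSC), 6.54 and 6.04 (ETP), 5.84 and 6.39 (NK), 5.89 (EILP) and 5.81 and 5.94 (LMPP). The 6 arrays of DN3, CLP and flt3- CMP all lay above the other 11. No neighbours in the order differed by the test, and the widest step, from flt3- CMP down to flt3+ CMP, was 0.64 ± 0.21 (adjusted p = 0.32).

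Of the 36 pairs, 13 were called for Tcf3, all of them between the upper and the lower group. The groups were drawn from these same values, so the calls are not separate support for them. In the lower group, flt3+ CMP was called against no other population, with DN3 above it by 0.69 (adjusted p = 0.072) and CLP by 0.64 (adjusted p = 0.11). DN3 was above 5 populations, and CLP and flt3- CMP above 4 each. These counts depended on single arrays, with ranges of 2 to 5 for DN3, 1 to 4 for CLP and 0 to 4 for flt3- CMP when each array was left out in turn. The count for flt3- CMP was 0 without either of its own arrays, where its difference from LMPP was 1.20 (adjusted p = 0.056, without replicate 1) or 1.18 (adjusted p = 0.062, without replicate 2). That pair also lost its call without LMPP replicate 1 (1.12, adjusted p = 0.066). In fits of only the populations compared, the call was also lost for CLP minus HSC (0.74, adjusted p = 0.052), NK minus flt3- CMP (-0.95, adjusted p = 0.052), ETP minus flt3- CMP (-0.77, adjusted p = 0.087) and ETP minus CLP (-0.78, adjusted p = 0.11). CLP was above LMPP in each fit with an array left out, by 1.06 to 1.33 with adjusted p-values up to 0.046. DN3 was above LMPP (1.24, adjusted p = 0.0016) and EILP (1.23, adjusted p = 0.0057) in each such fit. The comparisons of flt3- CMP with LMPP, NK and ETP lie within the Y-low side of the split.

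Tcf4, which encodes E2-2 and is known for its role in plasmacytoid dendritic cells, was lowest in NK. It was at 6.28 and 6.39 there, at 6.81 in EILP and at 7.05 and 6.62 in DN3. In the other populations it was at 7.47 and 6.79 (HSC), 7.26 and 7.03 (flt3- CMP), 7.06 and 7.50 (ETP), 7.33 and 7.58 (flt3+ CMP), 7.46 and 7.57 (CLP) and 7.27 and 7.77 (LMPP). Both NK arrays lay below all 15 others, and all neighbours in the order overlapped except EILP and NK, which differed by 0.47 ± 0.30 (adjusted p = 0.53). NK was called below 4 populations. NK minus LMPP was -1.18 (adjusted p = 0.01), NK minus CLP -1.18 (adjusted p = 0.011), NK minus flt3+ CMP -1.12 (adjusted p = 0.012) and ETP minus NK 0.94 (adjusted p = 0.024). None of the 4 was called without NK replicate 1, where the adjusted p-values were 0.052 (LMPP, -1.13), 0.059 (CLP, -1.12), 0.058 (flt3+ CMP, -1.06) and 0.1 (ETP minus NK, 0.88). The call against flt3+ CMP was also lost without flt3+ CMP replicate 2 (-0.99, adjusted p = 0.1). That of ETP minus NK was also lost without NK replicate 2 (1.00, adjusted p = 0.078) or ETP replicate 2 (0.72, adjusted p = 0.17). NK minus HSC, -0.80 (adjusted p = 0.065), passed without HSC replicate 2 (-1.14, adjusted p = 0.026) and with quantile normalisation (-0.79, adjusted p = 0.049). NK minus flt3- CMP, -0.81 (adjusted p = 0.051), passed with centred arrays (-0.87, adjusted p = 0.038), with dim genes left out (-0.81, adjusted p = 0.038) and with only these populations fitted (adjusted p = 0.042). In that kind of fit ETP minus NK was not called (0.94, adjusted p = 0.081). The mean of 6 plasmacytoid dendritic cell markers was 5.47 in CLP, 5.03 in EILP and 4.31 to 4.85 elsewhere, with NK at 4.85. Among these markers Siglech was at 7.05 in CLP, 5.94 in EILP and 5.24 in NK, and their part in the Tcf4 levels was not tested.

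The 12 main comparisons set each population against a neighbour in development or against another lymphoid population. In the plot of differences, 14 of the 72 values passed the test, and 5 of the 12 comparisons had no member called. Each of these comparisons called between 0.108% and 8.73% of all genes. Between LMPP and HSC 0 of 6 were called, with 0.600% of all genes, and 2 had an unadjusted p under 0.05, Id2 at 0.56 ± 0.23 and Tcf3 at -0.46 ± 0.21. Between flt3- CMP and HSC 0 were called, with 4.22% of all genes. Tcf3 came nearest there, at 0.73 ± 0.21 (adjusted p = 0.065), and was the 1 gene with an unadjusted p under 0.05. Between flt3+ and flt3- CMP 0 were called, with 0.108% of all genes, and 1 had an unadjusted p under 0.05, Tcf3 at -0.64 ± 0.21. Between ETP and LMPP 0 were called, with 3.42% of all genes, and 1 had an unadjusted p under 0.05. It was Tcf12, at 0.37 ± 0.15 (adjusted p = 0.26), while Tcf3 was at 0.42 ± 0.21 (adjusted p = 0.38).

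**Figure D2:**
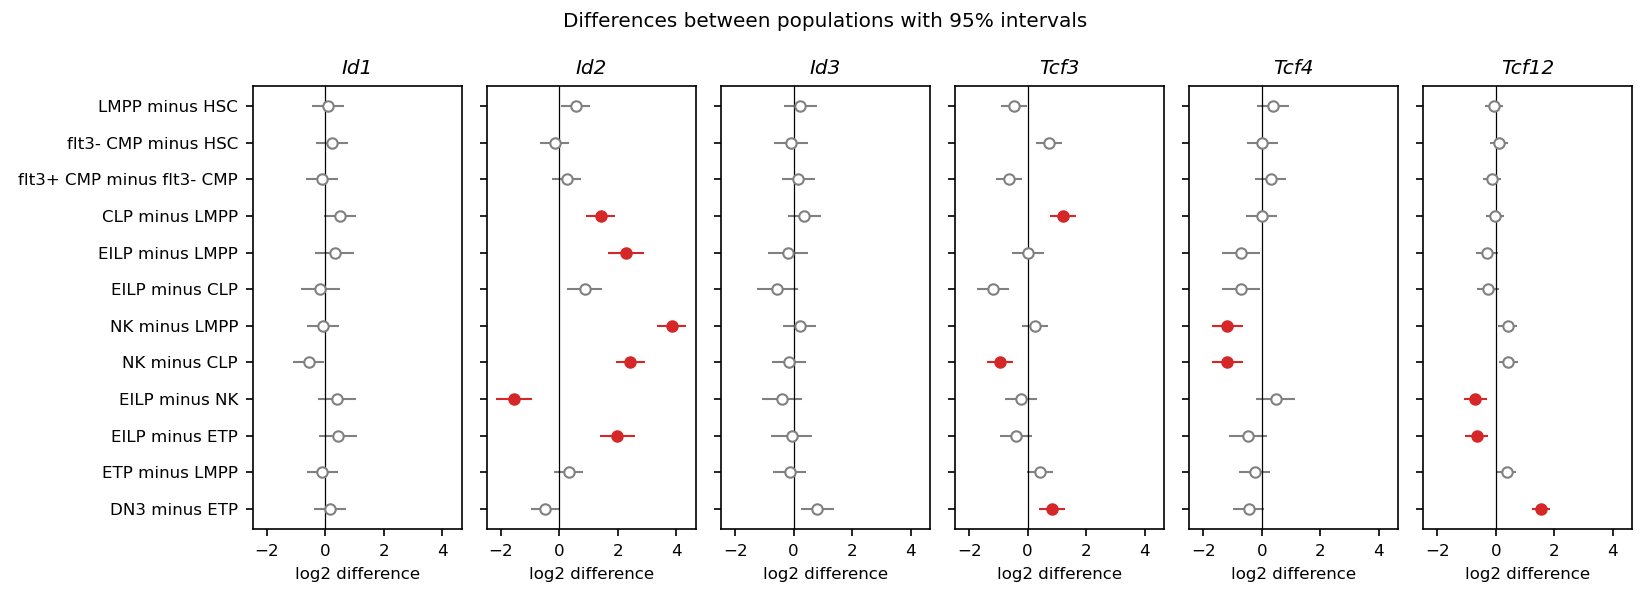
Difference in log2 expression between 2 populations (horizontal axis) for the 12 main comparisons (rows) and the 6 genes (panels), with the estimate as a point and its 95% interval from limma as a line. Filled red points passed an adjusted p of 0.05 over all genes and open grey points did not. Id2 has 6 filled points and Id1 and Id3 have none.

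From LMPP to CLP, the step toward committed lymphoid progenitors, an Id gene and an E protein gene were both higher. Of 6 genes 2 were called, both higher, with 5.96% of all genes called. Id2 rose by 1.42 ± 0.23 (2.67-fold, adjusted p = 0.0021) and Tcf3 by 1.20 ± 0.21 (2.29-fold, adjusted p = 0.0033). The comparison crosses the Y-linked split. Pax5, a B cell factor, was also higher in CLP, at 6.94 against 4.83, and its arrays were far apart at 6.26 and 7.62. The mean of 4 B cell markers was 6.17 in CLP and 4.33 to 5.18 elsewhere, and their part in the Tcf3 level was not tested.

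EILP differed from LMPP in Id2 alone among the 6, by 2.28 ± 0.28 (4.85-fold, n = 1 against 2, adjusted p = 4.6e-04), with 3.90% of all genes called. Tcf3 was at 5.89 in EILP and at 5.87 in LMPP, a difference of 0.01 ± 0.25. Tcf4 was at -0.71 ± 0.30 (95% interval -1.37 to -0.06) and did not pass over all genes. Against CLP, 0 of 6 passed in EILP, with 0.365% of all genes called. The values there were -1.18 ± 0.25 for Tcf3 (95% interval -1.73 to -0.64, adjusted p = 0.089), 0.86 for Id2, -0.71 for Tcf4 and -0.27 for Tcf12. Unadjusted p-values were under 0.05 for Tcf3 (4e-04), Id2 (0.0088) and Tcf4 (0.035). EILP and CLP lie on the same side of the Y-linked split, and with only the arrays of that side the adjusted p was 0.2 for Tcf3 and 0.28 for Id2.

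NK differed from LMPP in 2 of 6 genes, with 6.72% of all genes called. Id2 was 14.3-fold higher (3.84 ± 0.23, adjusted p = 1.4e-07) and Tcf4 lower, at -1.18 ± 0.25 (adjusted p = 0.01). The call of Tcf4 was also lost without LMPP replicate 2 (-0.93, adjusted p = 0.11) and without NK replicate 1 (-1.13, adjusted p = 0.052). Against CLP, 3 of 6 differed in NK, with 6.39% of all genes called. Id2 was 2.42 higher (adjusted p = 1.8e-05), Tcf3 was at -0.96 (adjusted p = 0.013) and Tcf4 at -1.18 (adjusted p = 0.011). Tcf12 went the other way without passing, at 0.43 ± 0.15 against CLP (unadjusted p = 0.011, adjusted p = 0.1). Against LMPP it was at 0.41 ± 0.15 (unadjusted p = 0.015, adjusted p = 0.12). The 2 lower calls did not withstand leaving out single arrays. Tcf3 was at -0.82 (adjusted p = 0.12) without CLP replicate 2 and at -0.68 (adjusted p = 0.1) without NK replicate 1. With only these populations fitted it was at -0.96 (adjusted p = 0.11). Tcf4 was at -1.24 (adjusted p = 0.053) without CLP replicate 1, at -1.12 (adjusted p = 0.082) without CLP replicate 2 and at -1.12 (adjusted p = 0.059) without NK replicate 1.

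EILP against NK had 2 of 6 genes called, both lower in EILP, with 3.48% of all genes called. Id2 was at -1.56 ± 0.28 (adjusted p = 0.0067), or -1.56 with adjusted p = 0.11 when only these populations entered the fit. Tcf12 was at -0.70 ± 0.18 (adjusted p = 0.048). Of 9 alternatives only 1 kept the Tcf12 call, and without NK replicate 1 or NK replicate 2 it was at -0.75 (adjusted p = 0.077) and -0.65 (adjusted p = 0.14). With the replicate block the value was -0.72 (adjusted p = 0.061).

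EILP against ETP also had 2 of 6 called, with 8.19% of all genes called. Id2 was 3.92-fold higher in EILP (1.97 ± 0.28, adjusted p = 4.5e-04), and Tcf12 was lower, at -0.66 ± 0.18 (adjusted p = 0.035). Without ETP replicate 2 the Tcf12 call was lost (-0.54, adjusted p = 0.15), as it was with a trended and robust prior (-0.66, adjusted p = 0.061). This comparison and those of EILP with LMPP and NK cross the Y-linked split, as does NK against CLP. EILP against ETP also sets marrow against thymus, with the mean of the neutrophil list at 11.96 in EILP and 5.30 in ETP.

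From ETP to DN3, Tcf12 and Tcf3 were higher, Tcf4 did not pass, and no Id gene passed. Of 6 genes 2 were called, with 8.73% of all genes called. Tcf12 rose by 1.53 ± 0.15 (2.89-fold, adjusted p = 1.3e-05) and Tcf3 by 0.82 ± 0.21 (1.77-fold, adjusted p = 0.023). The Tcf3 call was lost without ETP replicate 2 (0.57, adjusted p = 0.2), DN3 replicate 1 (0.93, adjusted p = 0.058) or DN3 replicate 2 (0.71, adjusted p = 0.16). It was also lost with only these populations fitted (0.82, adjusted p = 0.11). Tcf4, the remaining E protein gene, was at -0.44 ± 0.25 (6.84 in DN3 against 7.28 in ETP, adjusted p = 0.35), with no overlap of its arrays. Id3 was at 0.81 ± 0.26 (adjusted p = 0.08) and passed with arrays centred on their medians (0.88, adjusted p = 0.042) or quantile normalised (0.93, adjusted p = 0.037). Id2 was at -0.48 ± 0.23 (adjusted p = 0.25) and passed without ETP replicate 1 (-0.83, adjusted p = 0.044). The comparison crosses the Y-linked split.

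The balance of Id over E proteins was taken per array as the mean log2 value of the 3 Id genes minus that of the 3 E protein genes. Since probe sets of different genes have no common scale, it was centred on the mean of the 9 populations, and a value of 0 does not mean equal amounts. NK had the highest balance, with arrays at 1.25 and 1.55, followed by EILP at 1.04 and CLP at 0.17 and 0.37. LMPP was at -0.20 and 0.00, ETP at -0.46 and -0.05, and HSC at -0.72 and -0.14. The lowest were flt3+ CMP at -0.59 and -0.35, flt3- CMP at -0.77 and -0.67, and DN3 at -0.92 and -0.55. NK and EILP stood apart from all other arrays, and CLP from all below it, while each of the 6 lower populations overlapped at least 1 other. The SD between arrays of a population, pooled, was 0.23. As a score over the chosen genes the balance was not tested.

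**Figure D3:**
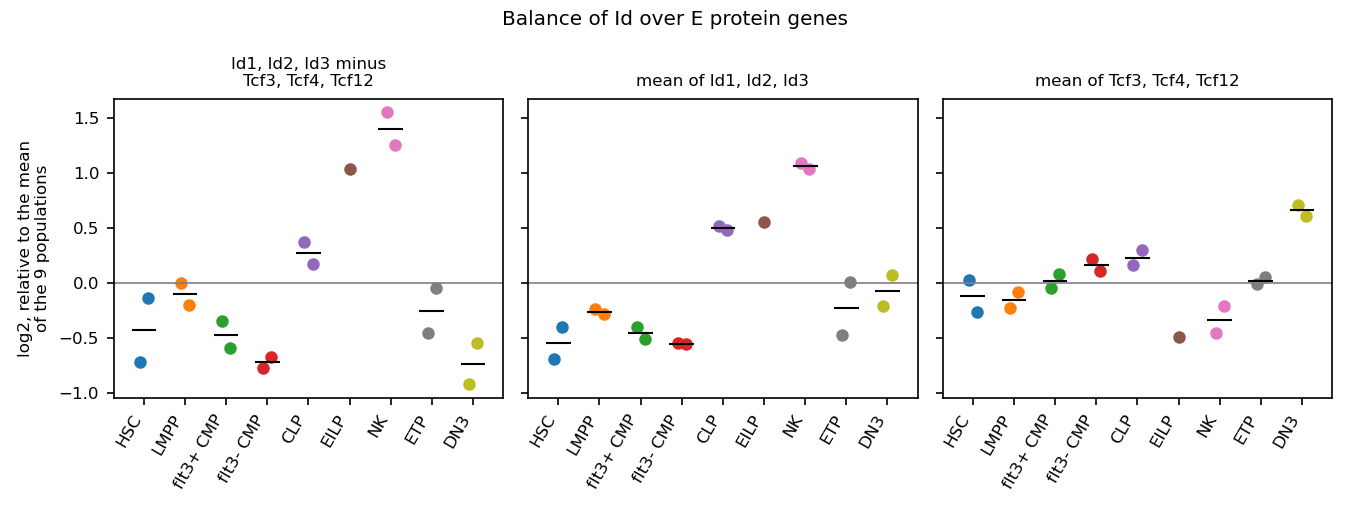
Balance of Id over E protein genes (vertical axis, log2, relative to the mean of the 9 populations) per population (horizontal axis), with 1 point per array and a bar at the mean of populations with 2 arrays, for the 3 Id genes minus the 3 E protein genes and for its parts. NK, EILP and CLP lie above 0 and DN3 and flt3- CMP lowest, at -0.73 and -0.72.

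The Id and E protein parts of the balance differed between populations. The Id part averages Id2, whose population means ranged over 4.55, with Id1 (0.59) and Id3 (1.00), which were near the floor. In NK the mean of the Id genes was 1.06 above the mean of the populations and that of the E protein genes was at -0.34. In EILP they were at 0.55 and -0.49, and in CLP at 0.50 and 0.23, so both means were above average in CLP. Of the Id genes in CLP, Id1 (4.21) and Id3 (4.27) lay below the median of all values. DN3 and flt3- CMP had nearly the same balance on this log2 mean, at -0.73 and -0.72, but not with linear values summed before the log, at -1.62 and -1.14. On the log2 mean they differed in their parts, with Id genes at -0.07 and E protein genes at 0.66 in DN3, and -0.55 and 0.17 in flt3- CMP. From LMPP to CLP the Id part was 0.76 higher and the E part 0.39 higher, so the balance was 0.37 higher. From CLP to EILP the Id part was 0.05 higher and the E part was at -0.72, and the balance was 0.77 higher. This split depends on the averaging, since within the Id part Id2 was at 0.86, Id1 at -0.17 and Id3 at -0.55. For Id2 alone minus the E protein mean, the same step was 1.58, of which Id2 gave 0.86. EILP had 1 array, and no E protein gene passed the test there.

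Id2 against single E proteins gave a wider spread than the balance of all 6, which averages Id2 with the less variable Id1 and Id3. Against the mean of the 3 E protein genes, Id2 was at 3.51 in NK, 2.11 in EILP and 0.53 in CLP, and at -0.38 (ETP) to -1.54 (flt3- CMP) elsewhere, on the same relative scale. Against Tcf3 alone it was at 3.53 in NK and 2.20 in EILP, but 0.15 in CLP and -0.07 in LMPP, a difference of 0.22 between those populations. Against Tcf12 alone DN3 was lowest at -2.44, and against Tcf4 alone flt3+ CMP was, at -1.46. The order of NK, EILP and CLP at the top was the same for Id2 against each of Tcf3, Tcf4 and Tcf12. These measures share the Id2 values, whose range of 4.55 exceeds those of Tcf3 (1.24), Tcf4 (1.18) and Tcf12 (2.19). The shared order therefore largely restates that of Id2 and is not separate support. Id1 and Id3 against the E protein mean had different orders, with EILP highest for Id1 (0.72) and NK highest for Id3 (0.52, arrays at 0.16 and 0.87).

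Over the 9 population means, given as a description in which both genes of a pair were read on the same arrays, Id2 and Tcf4 had r = -0.66, which was -0.20 without NK. Id3 and Tcf12 had r = 0.74, which was 0.15 without DN3, and Tcf3 and Tcf12 had r = 0.50, or 0.13 without DN3. Id2 had r = -0.37 with Tcf3 and r = -0.16 with Tcf12. Each of the 3 larger values was nearer 0 with that 1 population left out, but not with the other of NK and DN3 left out. Without DN3, Id2 and Tcf4 had r = -0.75. Without NK, Id3 and Tcf12 had r = 0.74 and Tcf3 and Tcf12 had r = 0.54. Some other pairs moved away from 0, such as Id1 and Id2 from 0.20 to 0.72 without NK and Id2 and Id3 from 0.24 to 0.61 without DN3.

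The genes with profiles most like each member over the 9 population means were taken from 4989 genes whose means ranged over at least 1 log2 unit. For Id2 they were Skil, a repressor of Smad signalling (r = 0.961), Irak2, a kinase of interleukin 1 and Toll-like receptor signalling (r = 0.952), and Klhl30 (r = 0.951). For Tcf12 they were Ahr, the aryl hydrocarbon receptor (r = 0.990), Ptprf (r = 0.987) and Ly6k (r = 0.977), all highest in DN3. For Id3 they were Lef1, a partner of beta-catenin in thymocytes (r = 0.950), Ly6d (r = 0.947) and Slamf6 (r = 0.943). Tcf3 was most like Gpam (r = 0.940), Mknk2 (r = 0.933) and Eftud2 (r = 0.930), and Tcf4 most like Cep290 (r = 0.924), Wdfy4 (r = 0.901) and Cd93 (r = 0.900). For Id1, whose own range was 0.59, they were Fbxo10 (r = 0.963), Olfr460 (r = 0.947) and Nadk (r = 0.943). Neither Id1 (adjusted p = 0.56) nor Id3 (adjusted p = 0.12) passed the F test over the populations, yet their r values were about as high. With 4989 genes searched over 9 means, such values can arise without any relation between the genes.

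Among other partners of E proteins, Lyl1 had the largest difference, between ETP and DN3. Of 8 helix-loop-helix partners, at most 1 was called in any of the 12 comparisons, and it was Lyl1 each time, a leukemia-associated factor that pairs with E2A. From ETP to DN3 Lyl1 fell by 2.85 ± 0.23 (adjusted p = 3e-06), from 7.33 and 7.37 to 4.33 and 4.68, where 3.53% of all genes were called lower. The median of the 8 partners was -0.03 in that comparison, as was that of all genes. Tal1, its close relative, was highest in flt3- CMP at 5.89 and 6.14 and in HSC at 5.43 and 6.04, and no comparison called it. Id4, the remaining Id gene, had population means of 3.84 to 4.43.

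Of 10 cofactors, 2 were higher and 1 lower in CLP than in LMPP, where 3.75% of all genes were called higher and 2.20% lower. The median was 0.02 against -0.05 over all genes. Only Lmo4 among these kept its call without each LMPP or CLP array. Ep300, a histone acetyltransferase, was at 0.53 (adjusted p = 0.042), and lost its call without LMPP replicate 1 (0.43, adjusted p = 0.29), LMPP replicate 2 (0.63, adjusted p = 0.079), CLP replicate 1 (0.54, adjusted p = 0.16) or CLP replicate 2 (0.52, adjusted p = 0.2). It was also lost with the replicate block (0.53, adjusted p = 0.051), with quantile normalisation (0.36, adjusted p = 0.18) and in 3 other settings. Lmo2 was at -0.94 (adjusted p = 0.02), and was not called without LMPP replicate 1 (adjusted p = 0.083), LMPP replicate 2 (-0.89, adjusted p = 0.12) or CLP replicate 1 (-0.73, adjusted p = 0.2). Lmo4, a LIM domain adaptor, was 1.12 ± 0.18 higher (adjusted p = 0.0017). It was also 1.07 ± 0.22 higher in EILP than in LMPP (adjusted p = 0.012), with 1 cofactor higher and 1 lower there. That call was lost without LMPP replicate 2 (1.04, adjusted p = 0.064). Lmo2, which bridges Lyl1 or Tal1 dimers to other factors, was lower in ETP than in LMPP, at -1.39 ± 0.22 (adjusted p = 0.002), the only cofactor called in that comparison. Its levels were 6.62 and 7.13 in HSC, 6.73 and 6.84 in LMPP, 5.22 and 5.58 in ETP, and 5.10 and 5.27 in DN3.

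Of 13 lymphoid genes known to be activated by E proteins, listed with earlier results of these data known, 11 were measured. Some of them are also population markers, with Il7r and Dntt in the CLP list, Ptcra in the DN3 list and Cd79a in the B cell list. In CLP against LMPP 5 were higher, with a median of 0.59 against -0.05, where 3.75% of all genes were called higher. Of these Foxo1, at 0.71 (adjusted p = 0.0092), was not called with the mean of its probe sets (0.33, adjusted p = 0.26), or without LMPP replicate 2 (0.59, adjusted p = 0.095), CLP replicate 1 (0.68, adjusted p = 0.07) or CLP replicate 2 (0.73, adjusted p = 0.057). The mean of the B cell markers was 6.17 in CLP, 4.68 in LMPP and 4.33 in EILP, and its part in the list's differences was not tested. In EILP against CLP 6 were lower, with a median of -2.42 against 0.05, where 0.325% of all genes were called lower. The 6 included Igll1 at -5.18, Il7r at -3.66, Ebf1 at -3.61 and Dntt at -3.08. Since Il7r and Dntt are markers of CLP, the count is in part not separate from what defines CLP. Foxo1, at -1.14 ± 0.17 (adjusted p = 0.012), lost its call without CLP replicate 1 (-1.12, adjusted p = 0.064) or CLP replicate 2 (-1.17, adjusted p = 0.053), and with the mean of its probe sets (-0.57, adjusted p = 0.32). Ptcra and Vpreb1 were called in neither comparison. With only CLP and EILP in the fit, 0 were called, and with only the arrays on their side of the Y-linked split 5 were.

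In NK against CLP 5 of the 11 were lower, with a median of -1.36 against 0.09, where 3.17% of all genes were called lower. Against LMPP, NK had 2 higher and 2 lower, with 3.54% of all genes called higher and 3.18% lower. The higher ones were Il7r, the interleukin 7 receptor, at 1.45 ± 0.28 (adjusted p = 0.0053) and Foxo1, a transcription factor of lymphocytes, at 1.14 ± 0.14 (adjusted p = 1.9e-04). The lower ones were Dntt at -4.50 and Rag2 at -2.83, both of antigen receptor rearrangement. Foxo1 was at 6.92 and 7.13 in NK, 6.57 and 6.62 in CLP and 5.45 in EILP.

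From ETP to DN3 4 of the 11 were higher and none lower, where 5.20% of all genes were called higher and 3.53% lower. The median was 0.39 against -0.03 over all genes. Ptcra, the pre-T cell receptor alpha chain, rose by 2.50 ± 0.26 (adjusted p = 3.1e-05), from 4.79 and 4.80 to 6.77 and 7.82, and was at 4.39 to 4.97 in every array of the 7 marrow populations. Il7r rose by 2.37 ± 0.28 (adjusted p = 8.5e-05). The 2 other calls, Notch1 at 0.79 (adjusted p = 0.029) and Cdkn1a at 1.13 (adjusted p = 0.024), were lost together without ETP replicate 1 (adjusted p = 0.11 and adjusted p = 0.099), ETP replicate 2 (adjusted p = 0.068 and adjusted p = 0.065) or DN3 replicate 1 (adjusted p = 0.12 and adjusted p = 0.18). Notch1 was also lost without DN3 replicate 2 (adjusted p = 0.12). Notch1 was already 1.70 ± 0.21 higher in ETP than in LMPP (adjusted p = 2.2e-04), the only gene of the list called in that comparison.

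**Figure D4:**
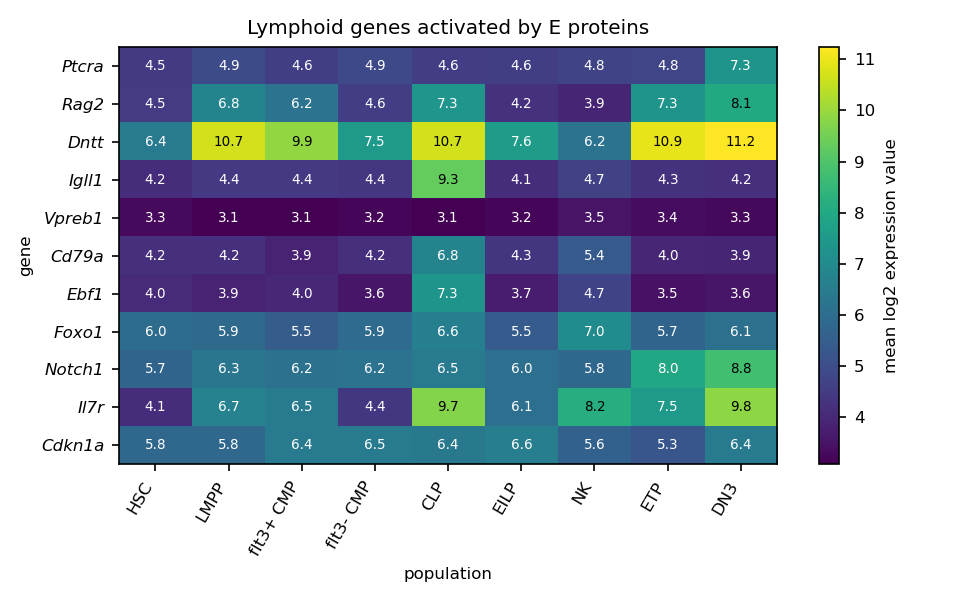
Mean log2 expression value (colour, printed in each cell to 1 decimal) of the 11 measured lymphoid genes known to be activated by E proteins (rows) in the 9 populations (columns). CLP is high for Igll1, Ebf1 and Cd79a, DN3 is high for Ptcra and Notch1, and Vpreb1 is low in every population.

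Of 10 genes known to induce Id genes, at most 2 were called in any comparison. Nfil3, a transcription factor upstream of Id2 in innate lymphoid development, was at 6.70 in EILP and at 6.29 and 6.54 in NK, and at 4.50 to 5.90 in all other arrays. Nfil3 is also in the list of EILP markers, so its level in EILP is not separate from what was taken to mark EILP. It was 1.88 ± 0.33 higher in EILP than in ETP (adjusted p = 0.0022), while the differences of EILP from LMPP (1.06, adjusted p = 0.1) and from CLP (1.19, adjusted p = 0.22) did not pass. Egr2, an early growth response factor upstream of Id2 and Id3, was higher in NK than in LMPP (1.13 ± 0.13, adjusted p = 1.1e-04) and CLP (0.91 ± 0.13, adjusted p = 8.9e-04). Its level in NK was 4.83 and 5.01, and it was below the median of all values in every other population. The Egr2 call against CLP was lost with only these populations fitted (0.91, adjusted p = 0.053). Egr1, a related factor, was also higher in NK than in CLP (1.74, adjusted p = 0.011). That call was lost without CLP replicate 1 (1.77), CLP replicate 2 (1.72) or NK replicate 2 (1.73). Bmpr2, a receptor for bone morphogenetic proteins, fell by 2.59 ± 0.21 from ETP to DN3 (adjusted p = 3e-06), from 7.57 and 7.64 to 4.95 and 5.07. The median of the 10 genes was between -0.19 and 0.21 in each of the 12 comparisons.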

How the data were processed

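The authors deposited log2 expression values for 41345 probe sets of the Affymetrix Mouse Gene 2.0 ST array on 17 arrays, made with Affymetrix Expression Console per the submitters' processing notes, with its version and algorithm not given in the sources used here. Values were used as deposited. RNA was amplified before labelling, per the labels' protocols. Of the probe sets 23521 had 1 gene symbol. The probe set with the highest mean was kept for each of 22180 genes, which affected 1082 genes and none of the 6 members.

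Populations were compared with limma 3.58.1 in R 4.3.3, with 1 mean per population over all 17 arrays, a prior of 5.33 and a residual of 8 degrees of freedom. EILP, with 1 array, is assumed to vary like the others. P-values were adjusted over all 22180 genes by Benjamini-Hochberg, and a gene was called at an adjusted p under 0.05. Values after ± are standard errors of a limma difference. On simulated arrays, 58.0% of 100 genes changed by 1 log2 unit and 95.0% of 100 changed by 2 were called for CLP minus LMPP. For EILP minus CLP the shares were 41.0% and 90.0%.

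Named were all 6 members, the 3 genes most like each by Pearson's r over population means, and up to 3 called genes per direction from each pathway list. Others, such as levels of Tal1, Id4 and Lmo2 outside their calls, were named after their values were seen. The members and lists were chosen with earlier results of these data known. Alternatives were another centring, quantile normalisation, averaging probe sets per gene, leaving out dim genes, another prior, a replicate block, fits on 2 populations and each array left out. Fits within 1 side of the Y-linked split were added after seeing the data. Over 28 population pairs, deviations of same-numbered replicates had correlations of -0.07 to 0.09, so the numbers were not taken to pair samples.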

Additional observations from a re-analysis of the deposited data

How the results depend on the processing

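No difference of a member changed sign while called under any alternative run. For EILP minus NK, 1 of 6 genes was called with arrays centred on their medians, with quantile normalisation, with dim genes left out, with a trended and robust prior and with the replicate block, and 0 with only these populations fitted. For EILP minus ETP 1 was called with the trended and robust prior and 1 in the fit of 2 populations. That kind of fit also called 1 for flt3- CMP minus HSC and 1 for DN3 minus ETP. Among the 12 main comparisons the replicate block changed no other count of members called. Outside them it ended the Id2 call of ETP minus HSC (0.86, adjusted p = 0.053). Fits of 2 populations also ended the Tcf3 call of NK minus CLP (-0.96, adjusted p = 0.11), and the cause of these shifts was not tested.

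With each array left out in turn, the count of members called was 1 to 2 for NK minus LMPP, 1 to 3 for NK minus CLP, 1 for EILP minus NK, 1 to 2 for EILP minus ETP and 1 to 3 for DN3 minus ETP. The adjusted p of the F test was 0.011 (without NK replicate 1) to 0.35 for Id3 and 0.014 to 0.11 (without NK replicate 1) for Tcf4. The balance of HSC was -0.69 without HSC replicate 2 and -0.17 without HSC replicate 1. With linear values summed before the log, the balance was 3.02 in NK, 1.86 in EILP, 0.52 in CLP, -0.47 in LMPP, -0.86 in HSC, -0.88 in flt3+ CMP, -1.14 in flt3- CMP and -1.62 in DN3.

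Counts over all genes fell with only 2 populations fitted, from 133 to 29 (LMPP minus HSC), 24 to 7 (flt3+ CMP minus flt3- CMP), 81 to 0 (EILP minus CLP), 1491 to 693 (NK minus LMPP), 1418 to 564 (NK minus CLP), 772 to 125 (EILP minus NK), 1817 to 855 (EILP minus ETP), 759 to 315 (ETP minus LMPP) and 1936 to 1083 (DN3 minus ETP). These fits have fewer samples. Within 1 side of the Y-linked split EILP minus CLP had 22. For flt3+ CMP minus flt3- CMP, 24 became 9 with centring, 11 with quantile normalisation, 6 with the replicate block and 1 within the split. Leaving out an array gave as few as 226 of 935 for flt3- CMP minus HSC, without flt3- CMP replicate 2, and 1 of 24 for the CMP pair, without flt3- CMP replicate 2. Id1 was not tested with dim genes left out.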
